A study of Mus musculus with 8 samples.

Results

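The windows described here are 381 stretches of 1 kb of the mouse autosomes that were dense in reads in every one of 8 chromatin immunoprecipitation sequencing (ChIP-seq) libraries. Reads that shared a chromosome and a start were counted once, each read was assigned to the window holding its midpoint, and a window was taken when all 8 libraries held at least 10 such reads. This gave 381 of 2415348 autosomal windows, or 0.0158%, counted on the mm9 build from the first to the last read of each chromosome. The members were thus chosen by the read counts of these same libraries, so the density of the windows is a description and not a result. The number of deposited reads, the reads per start, the position of the windows and the arrangement of reads inside them took no part in the choice, although a window with more distinct starts also tends to hold more reads.

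The groups were 2 libraries with an antibody against PHF20, 2 with an antibody against Wdr5, 2 with an antibody against RNA polymerase II (Pol II) and 2 controls, all from cells of C57BL/6 background. The sample labels give the cells as neural progenitors derived from embryonic stem cells, while the study's title speaks of embryonic stem cells, and the culture protocol names embryonic stem cells and induced pluripotent stem cells grown on irradiated feeder cells. The protocol mentions both input DNA and IgG, and the labels do not say which of them the control libraries hold. No genotype, treatment or time differs between the groups, and whether replicates are separate cultures is not stated, so their spread may be technical. Libraries held 2905418 to 5456251 reads of 44 bp on the autosomes and X, fewest in control replicate 2 and most in control replicate 1. That library stood apart, lying over 2-fold below the median of the other 7 libraries in 84 of the windows, against at most 8 for any other library.

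Each mouse chromosome has its centromere at one end. Next to the centromere lie long tandem arrays of a short repeat, the major satellite, packed as constitutive heterochromatin, while the minor satellite carries the kinetochore. A reference assembly holds few of these copies and leaves the centromere as a gap at the start of each chromosome, so reads from the many copies in the cell can gather on the few copies in the assembly, depending on how the aligner treats reads with several matches. PHF20 binds methylated histones and belongs to a histone acetyltransferase complex. Wdr5 is shared by the methyltransferase complexes that act on lysine 4 of histone H3. Pol II transcribes protein-coding genes. The name satellite was not checked against sequence, because no genome or repeat annotation of the mm9 build was used here.

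The 381 windows formed 166 blocks of adjacent windows, and 124 of these blocks were a lone window. Of the windows, 139 (36.5%) ended within the first 4 Mb of their chromosome, which is near its start because the first read of each autosome began between 3000001 and 3000499. The other 242 lay elsewhere. Members made up 0.732% of the 19000 windows between the first read and 4 Mb, and 0.0101% of the windows beyond. The windows near chromosome starts were unevenly spread. Of these, 80 were on chromosome 11 and 39 on chromosome 9, and 10 of the 19 autosomes had none. Windows elsewhere were concentrated as well. With gaps of up to 100 kb allowed, 90 windows fell in 1 cluster on chromosome 8 from 19684001 to 20033000 and 16 in another on chromosome 1 from 87481001 to 87522000.

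At the threshold, 30 windows had exactly 10 distinct starts in their lowest library, and 53 windows just outside had 9. The highest library of these windows held a median of 22 starts in either set. Median reads per start were 1.17 inside and 1.11 outside.

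The windows were of 2 kinds, those with many reads on each start and those with few. The second kind did not have more starts. The 4 largest blocks, given below, held 418 to 541 starts per window, and the remaining windows 28.4 to 37.8. Deposited reads per distinct start, averaged over the libraries, had a median of 1.19 over the 381 windows, and 306 of them were below 1.5. Outside the windows the same measure was 1.05 to 1.31 in the 8 libraries. By contrast, 29 windows held at least 10 reads per start and the highest held 331. The 69 windows with at least 2 reads per start carried 96.5% to 98.4% of all reads in the 381 windows, whichever library was read. Near chromosome starts 46 of 139 windows reached 2 reads per start, against 23 of 242 elsewhere. Most of those near a chromosome start were the 39 windows of 1 block on chromosome 9.

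**Figure D1:**
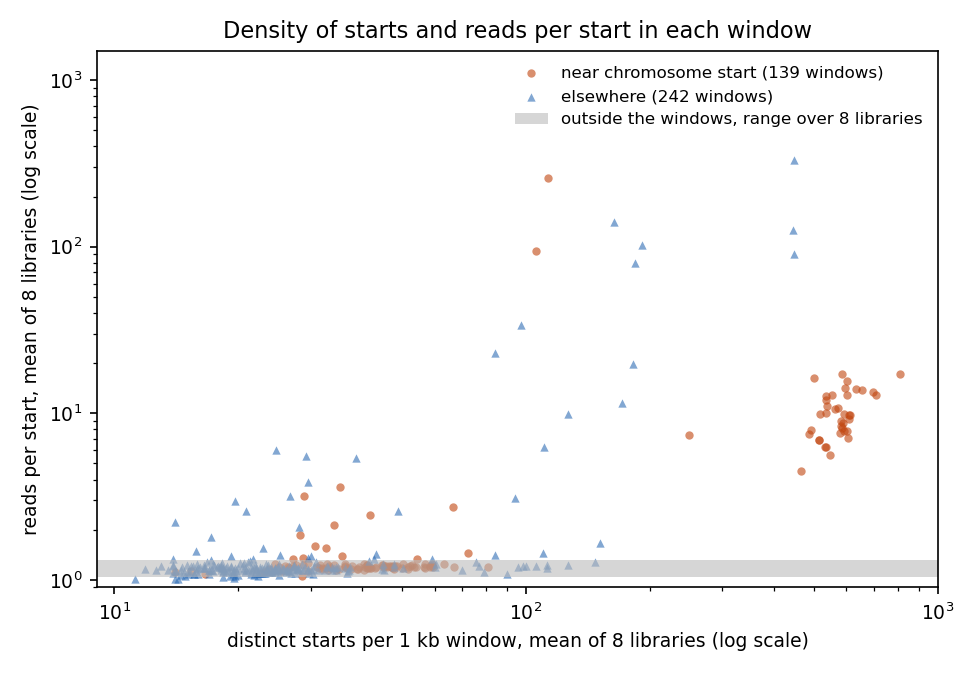
Distinct starts per 1 kb window (x axis, log scale) and deposited reads per start (y axis, log scale), both as means of the 8 libraries, for 139 windows near chromosome starts (circles) and 242 elsewhere (triangles); the grey band is the range of reads per start outside the windows. Most windows lie in or near the band, the windows of the chromosome 9 block form a cloud at the right, with 1 of them apart at fewer starts, and the windows with over 100 reads per start lie to the left of that cloud.

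Just 4 blocks held nearly all the reads. The largest lay on chromosome 2 at 98502001 to 98508000, and next came the start of chromosome 9 at 3000001 to 3039000. The other 2 lay on chromosome 12 at 3109001 to 3111000 and in the interior of chromosome 9 at 35112001 to 35114000. Together their 49 windows took 95.2% to 97.0% of the reads in the 381 windows. The chromosome 2 block held 7.74% and 6.96% of all deposited reads in the PHF20 libraries, 7.89% and 7.17% in the Wdr5 libraries, 6.71% and 6.70% in the Pol II libraries and 5.67% and 4.77% in the controls. The chromosome 9 block at the chromosome start held 6.83% and 6.05% in PHF20, 6.87% and 6.40% in Wdr5, 5.83% and 5.95% in Pol II, and 4.67% and 4.17% in the controls. In both places every ChIP library lay above both controls.

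The blocks on chromosome 12 and in the interior of chromosome 9 were smaller and ordered in the same way. The chromosome 12 block took 1.13% and 0.999% of reads in PHF20, 1.12% and 1.08% in Wdr5, 0.977% and 0.980% in Pol II, and 0.807% and 0.677% in control. The interior chromosome 9 block took 1.08% and 0.967% in PHF20, 1.10% and 1.02% in Wdr5, 0.935% and 0.931% in Pol II, and 0.734% and 0.663% in control. No ChIP library overlapped the controls in either block. Their edges were sharp. The last window inside the chromosome 9 block at the chromosome start held 934 to 2394 reads per library, and the next window held 1 to 6. The window left of the chromosome 2 block held 0 or 1 read, and the first inside held 19771 to 53688.

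Over all 381 windows, ChIP libraries had the larger share of deposited reads. The share was 17.3% and 15.5% in the PHF20 libraries, 17.5% and 16.3% in the Wdr5 libraries, 15.0% and 15.1% in the Pol II libraries, and 12.4% and 10.8% in the controls. The 95% exact binomial interval of each share (Clopper-Pearson) was 0.0553 to 0.0795 percentage points wide. These intervals cover counting error only, and reads copied by PCR are not independent. PHF20 averaged 16.4 ± 1.30% and control 11.6 ± 1.13% (mean ± SD, n = 2 each). Wdr5 averaged 16.9 ± 0.84% and Pol II 15.1 ± 0.10%. The difference from control was 4.82 percentage points in PHF20, 5.31 in Wdr5 and 3.46 in Pol II. In each comparison the groups did not overlap, and each gave a two-sided exact permutation p of 0.33, the smallest that 2 libraries against 2 allow. The direction held when any library was left out, and the 3 comparisons share their controls.

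On distinct starts the groups overlapped. The windows held 1.27% and 1.06% of all distinct starts in PHF20, 1.06% and 1.43% in Wdr5, 1.25% and 1.46% in Pol II, and 0.811% and 1.32% in control. The differences from control were 0.098, 0.176 and 0.284 percentage points. Distinct starts also chose the windows, so these differences are a description and no test is read from them. The larger share in ChIP was seen on deposited reads, duplicates included. Distinct starts could not show it where their number no longer rose with reads, as in a chromosome 2 window given below. The share of starts also ran with depth, and was lowest (0.811%) in control replicate 1, the deepest library. Overlap on distinct starts therefore does not decide whether the difference holds without duplicates.

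**Figure D2:**
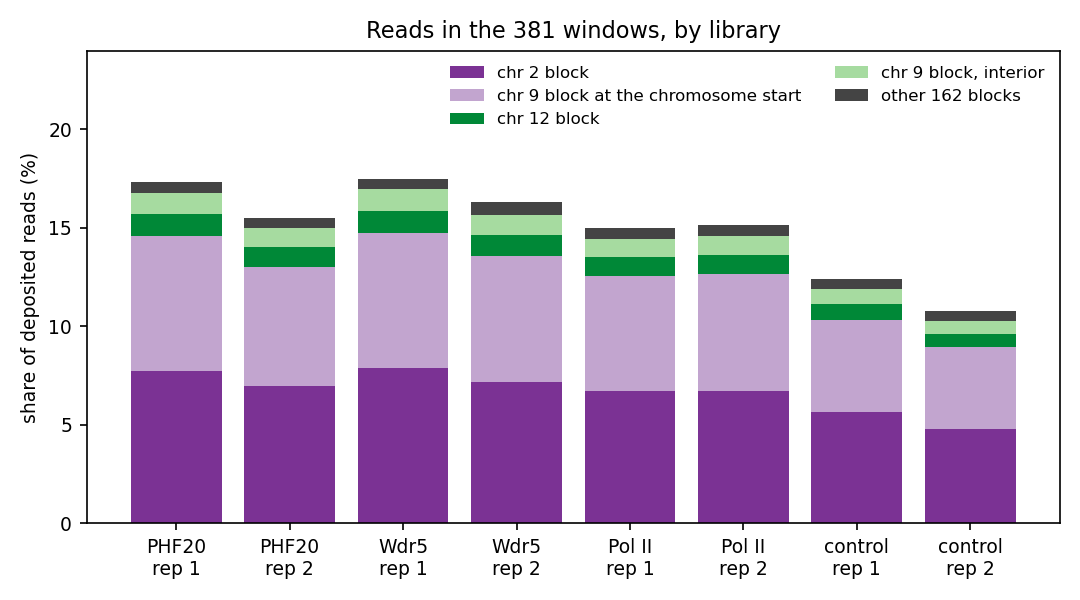
Share of deposited reads (y axis, %) that fell in the 381 windows in each of the 8 libraries, split into the 4 largest blocks and the other 162 blocks. Bars reach 15.0% to 17.5% in the 6 ChIP libraries and 10.8% and 12.4% in the controls, and the 4 blocks take nearly the same proportions of every bar.

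Most of the higher share lay in the 4 large blocks. In these blocks 15.9 ± 1.28% of reads fell in PHF20, 16.3 ± 0.92% in Wdr5, 14.5 ± 0.08% in Pol II and 11.1 ± 1.14% in control (mean ± SD, n = 2 each). In the other 332 windows the share was 0.535 ± 0.018% in PHF20, 0.585 ± 0.082% in Wdr5, 0.546 ± 0.022% in Pol II and 0.518 ± 0.004% in control. That differs by far less, but the agreement of the controls leans on 1 window. The chromosome 6 window at 103599001 held 7464 of 28105 of these reads in control replicate 1, and 213 of 15137 in control replicate 2. The share without it was not computed. Window by window, both libraries of a ChIP group exceeded both controls in 48 of the 49 windows of the large blocks, for PHF20, Wdr5 and Pol II alike. In the other 332 windows this was so for 52 with PHF20, 51 with Wdr5 and 71 with Pol II. The background, over the 83495 windows whose mean reached 3 deposited reads, was 20.3% in PHF20, 21% in Wdr5 and 26.4% in Pol II. The 332 windows stood at 15.7%, 15.4% and 21.4%, a little under it. Both ChIP libraries lay below both controls in 12 of the 381 windows for PHF20, 11 in Wdr5 and 16 in Pol II, or 3.15%, 2.89% and 4.2%, on a background of 8.26%, 8.33% and 6.66%. Windows within a block share their reads' source and are not independent of each other.

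Reads in the 4 blocks kept nearly fixed proportions while their total varied between libraries. Relative to the chromosome 2 block, the chromosome 9 block at the chromosome start held 86.8% to 89.2% as many reads in the ChIP libraries, and 82.4% and 87.4% in controls 1 and 2. The chromosome 12 block held 14.2% to 15.0% as many in all 8 libraries, and the interior chromosome 9 block 13.0% to 14.3%. Smaller blocks followed them. The lone chromosome 13 window (77578001 to 77579000) had 934 and 857 RPM (deposited reads per 1000000 on the autosomes and X) in PHF20, 976 and 894 in Wdr5, 861 and 815 in Pol II, and 632 and 606 in control. A lone window on chromosome 4 from 70039001 to 70040000 and a block on chromosome 12 from 75904001 to 75906000 were likewise lower in both controls than in every ChIP library. The chromosome 4 window had 476 to 577 RPM in ChIP, against 375 and 350 in the controls. The chromosome 12 block at 75904001 had 191 to 262 in ChIP, against 181 and 158 in the controls.

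**Figure D3:**
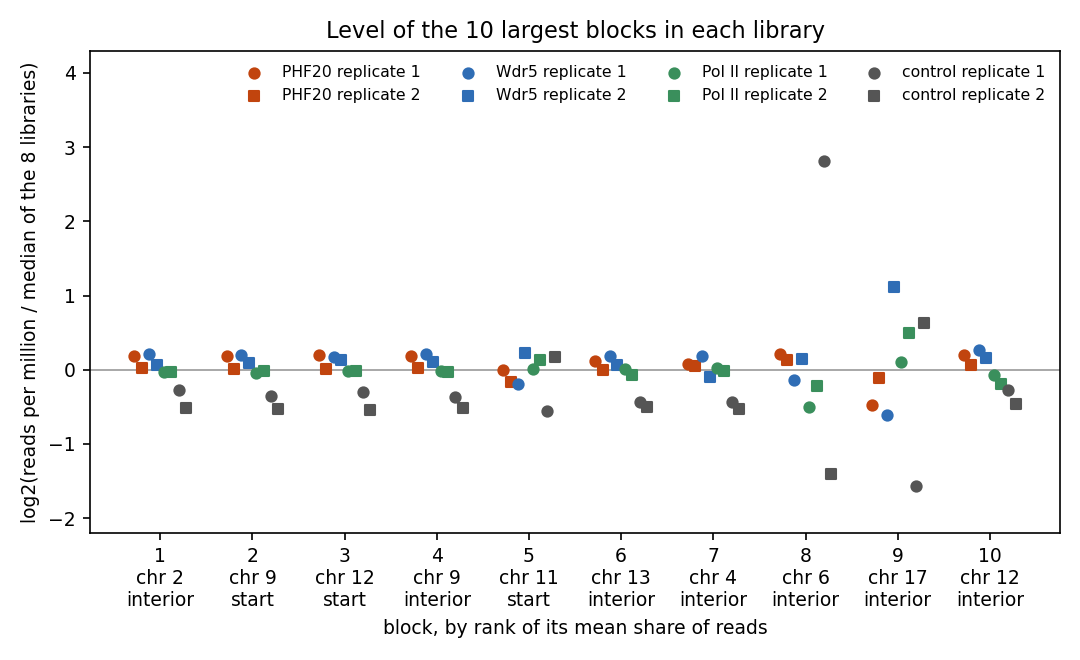
RPM of the 10 largest blocks in each library, as log2 of the ratio to the median of the 8 libraries (y axis), with blocks along the x axis in order of their mean share of reads; circles are replicate 1 and squares replicate 2. In blocks 1 to 4, 6, 7 and 10 the controls are the lowest, block 8 stands out for control replicate 1, and blocks 5 and 9 do not follow that order.

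Blocks with few reads per start behaved differently. The block of 75 windows on chromosome 11 from 3025001 to 3100000 was the longest of all, with 1.09 to 1.43 reads per start. It had 986 and 883 RPM in PHF20, 865 and 1160 in Wdr5, 996 and 1084 in Pol II, and 674 and 1116 in control, so that each ChIP group overlapped the controls. A block of 6 windows on chromosome 17 from 39980001 to 39986000 had 144 and 185 RPM in PHF20, 131 and 432 in Wdr5, 216 and 282 in Pol II, and 67.6 and 309 in control. There replicate 2 was higher than replicate 1 in all 4 groups, and the groups overlapped.

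Reads per start in the windows were 19.2 and 18.4 in the PHF20 libraries, 20.8 and 14.7 in the Wdr5 libraries, 15.8 and 15.8 in the Pol II libraries, and 18.1 and 10.5 in the controls. The PHF20 mean was 18.8 ± 0.56 and the control mean 14.3 ± 5.40 (SD, n = 2 each). The difference of 4.45 for PHF20 was smaller than the control SD, although the groups did not overlap (exact permutation p = 0.33, two-sided). For Wdr5, at 17.7 ± 4.29, and Pol II, at 15.8 ± 0.01, the differences of 3.42 and 1.53 were within the spread of the controls (exact permutation p = 0.667 and 1, two-sided). Without control replicate 2, the shallowest library, the differences were 0.63 in PHF20, -0.40 in Wdr5 and -2.29 in Pol II. Without control replicate 1 they were 8.27, 7.24 and 5.35. Depth bears on this measure. In the chromosome 2 window from 98507001 to 98508000, every library held 443 to 449 distinct starts, on 77641 to 203945 reads. With total reads brought to those of the smallest library by expected values, an alternative chosen after seeing the data, the measure was 15.5 and 14.1 in PHF20, 15.7 and 13.6 in Wdr5, 13.7 and 14.0 in Pol II, and 12.5 and 10.5 in control. At matched total reads every ChIP library exceeded both controls over the 381 windows together. Elsewhere than near chromosome starts this did not hold, with 26.3 in Wdr5 replicate 2 and 29.8 and 30.3 in Pol II, against 30.4 and 20.6 in control. Only total reads were matched, and the share of them inside the windows still differed between libraries.

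Both kinds of location took a larger share of reads in ChIP than in control. Windows near chromosome starts held 8.09% and 7.18% of deposited reads in PHF20, 8.11% and 7.63% in Wdr5, 6.94% and 7.08% in Pol II, and 5.57% and 4.99% in control. Windows elsewhere held 9.24% and 8.32% in PHF20, 9.40% and 8.69% in Wdr5, 8.05% and 8.05% in Pol II, and 6.83% and 5.81% in control. Every ChIP library exceeded both controls in either location. Near chromosome starts both ChIP libraries exceeded both controls in 54 of 139 windows (38.8%) with PHF20, 52 (37.4%) with Wdr5 and 61 (43.9%) with Pol II. Elsewhere this held for 46 (19%), 47 (19.4%) and 58 (24%) of 242. Beside the background of 20.3%, 21% and 26.4%, the windows elsewhere lay slightly under it in each comparison, so their count shows nothing particular to them. Near chromosome starts, all 39 windows of the chromosome 9 block at 3000001 counted in each comparison. So did the 2 windows of the chromosome 12 block at 3109001. The higher percentages near chromosome starts thus lean on these blocks and are not read as an effect of location.

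With the windows of a location pooled, reads per start were higher away from chromosome starts in every library, whereas the median window had 1.22 near chromosome starts and 1.17 elsewhere. Near chromosome starts there were 12 and 11.6 reads per start in PHF20, 13.1 and 9.59 in Wdr5, 9.91 and 9.93 in Pol II, and 10.9 and 6.67 in control. Elsewhere the values were 40.0 and 36.8 in PHF20, 42.1 and 27.6 in Wdr5, 32.6 and 33.2 in Pol II, and 39.4 and 20.6 in control. Distinct starts ran the other way, at 156 to 207 per window near chromosome starts and 33.9 to 43.2 elsewhere. The pooled values rested on the large blocks. Without the 4 largest, reads per start were 1.20 to 1.53 near chromosome starts and 1.77 to 3.28 elsewhere, and 3.28 was control replicate 1.

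The division of reads between the 2 kinds of location hardly differed between groups. Windows near chromosome starts took 46.7% and 46.3% of the reads in the 381 windows in PHF20, 46.3% and 46.8% in Wdr5, 46.3% and 46.8% in Pol II, and 45.0% and 46.2% in control. On the log2 scale the ratio of near to elsewhere differed from control by 0.053 in PHF20, 0.057 in Wdr5 and 0.056 in Pol II. Each ChIP library lay above both controls, with an exact permutation p of 0.33, again the smallest possible. The differences were 0.018, 0.021 and 0.021 without control replicate 1, and 0.089, 0.093 and 0.092 without control replicate 2. With distinct starts in place of reads, the Wdr5 difference was -0.078.

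A fit across all windows was made on distinct starts. This measure chose the windows, and a minimum in all 8 libraries keeps out windows low in either group, so the fit describes the members and nothing is read from its counts. No member was called higher or lower in PHF20, Wdr5 or Pol II ChIP than in control by limma-trend (Benjamini-Hochberg adjusted over 29868 windows with a mean of at least 3, threshold 0.05). At an unadjusted limma-trend p under 0.05 there was 1 member in the PHF20 comparison, with 12 in Wdr5 and 11 in Pol II. These were 0.262%, 3.15% and 2.89% of the members, beside 2.58%, 4.36% and 5.59% of all tested windows. The background of adjusted calls over all windows was 0.0067% in the PHF20 comparison, 0.01% in Wdr5 and 0% in Pol II. The limma voom variant called no member either, and 4, 9 and 3 of the 29868 windows in all. The median log2 fold change of members was 0.19, 0.24 and 0.35, beside 0.17, 0.24 and 0.26 over all tested windows. Without control replicate 2, 12 members were called for Wdr5 (11 higher, 1 lower) and 8 for Pol II (7 higher, 1 lower), among 38 and 37 of the 29868 windows.

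With duplicates kept, so that stacked reads counted, some members of the large blocks were called. By limma-trend on deposited reads over 83495 windows, 4 members were higher in PHF20 and 8 in Wdr5. In Pol II 1 was higher and 1 lower. The background of calls in PHF20 was 0.00719%, all higher. In Wdr5 it was 0.0156%, made of 0.012% higher and 0.00359% lower. In Pol II it was 0.0024%, made of 0.0012% higher and 0.0012% lower. All of these windows were in the 4 largest blocks. The chromosome 2 window at 98507001 to 98508000 had 42645 and 38576 RPM in PHF20, 44055 and 39533 in Wdr5, 37223 and 36997 in Pol II, and 27787 and 26723 in control. Its log2 fold changes over control were 0.57, 0.61 and 0.45, and the standard error was 0.07 in each (adjusted p by limma-trend of 1.52e-10, 4.57e-12 and 0.000107). It was the only window called higher in all 3 comparisons. Another 3 windows were called higher in PHF20 and in Wdr5. The chromosome 12 window at 3109001 had 8479 and 7359 RPM in PHF20, 8276 and 8083 in Wdr5, 7249 and 7301 in Pol II, and 6058 and 5014 in control, with log2 fold changes of 0.52 for PHF20 and 0.57 for Wdr5 (limma-trend adjusted p 0.0156 and 0.00257). The interior chromosome 9 window at 35113001 had 6554 and 5978 RPM in PHF20, 6902 and 6168 in Wdr5, 5737 and 5606 in Pol II, and 4374 and 4102 in control, with log2 fold changes of 0.56 for PHF20 and 0.62 for Wdr5 (limma-trend adjusted p 0.0105 and 0.00134). The last was the chromosome 2 window at 98506001, at 0.46 and 0.48. In these windows too the Pol II libraries lay above both controls, although they were not called. Wdr5 alone passed the threshold in the chromosome 2 windows at 98502001 and 98503001 and the chromosome 9 windows at 3000001 and 35112001, with log2 fold changes of 0.48 to 0.57. The difference between the ChIP groups was not tested. The fit took each standard error wholly from a trend of spread over all windows and none from the window's own replicates. These standard errors and adjusted p therefore do not measure the replicate spread of a window. At such counts the trend rests on few windows, since the 52 tested windows with a mean of at least 1000 reads were all members. Without control replicate 1, 4 members were called in PHF20, 4 in Wdr5 and 1 in Pol II, all higher, among 10, 6 and 3 of the 83495 windows (deposited reads, chosen after seeing the data).

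The lower call for Pol II was the chromosome 2 window from 98505001 to 98506000, and it rested on control replicate 1. The window had 365 and 389 RPM in PHF20, 331 and 303 in Wdr5, 210 and 237 in Pol II, and 2200 and 99.8 in control (log2 fold change -1.07 ± 0.21 SE, limma-trend on deposited reads, adjusted p 0.0198). Control replicate 1 was the highest library and control replicate 2 the lowest. The SE, taken from the trend over all windows, does not hold this spread between the controls. Another 3 places, singled out after their values were seen, were high in that library. The chromosome 6 window at 103599001 to 103600000 had 226 and 212 RPM in PHF20, 176 and 214 in Wdr5, 137 and 166 in Pol II, and 1368 and 73.3 in control. In a block on chromosome 4 from 64158001 to 64160000, its right window had 28.7 and 27.5 in PHF20, 15.8 and 30.1 in Wdr5, 17.9 and 25.6 in Pol II, and 159 and 8.26 in control. These windows were 6.20 to 7.77 times the median of the other 7 libraries in control replicate 1, and control replicate 2 was again the lowest.

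The last of these places was a window on chromosome 1 from 24621001 to 24622000, with 7.84 and 22.7 RPM in PHF20, 13.0 and 4.81 in Wdr5, 13.3 and 11.3 in Pol II, and 46.2 and 12 in control. It differed from the others in having 1.05 to 1.82 reads per start, and its reads in control replicate 1 lay on 213 distinct starts. Control replicate 1 exceeded the median of the other 7 libraries over 2-fold in these 5 windows and was under it by over 2-fold in 84. Wdr5 replicate 2 was over 2-fold above in 37 windows and control replicate 2 in 16. They had 13 windows in common, 35.1% of the Wdr5 list and 81.2% of the control list. In the other 5 libraries at most 5 windows were above in this way. None of these counts was made over all windows, so they describe the members only.

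Inside the large blocks, reads fell on the same positions in every library. For each pair of libraries the square roots of the read counts at each start were correlated along the block, as a description with no test, since neighbouring positions are not independent. In the chromosome 12 block, the correlation was 0.995 to 0.998 over the 28 pairs, and 99% of its reads, with libraries weighted equally, fell within 202 bp. Starts used by all 8 libraries numbered 205 of 248 there and carried 99.9% of the reads. The interior chromosome 9 block had correlations of 0.990 to 0.997 and packed 99% of its reads into 328 bp. The chromosome 13 window, at 0.981 to 0.991, packed them into 109 bp, and the chromosome 4 window at 70039001, at 0.962 to 0.986, into 95 bp. The start at 70039201 alone carried 16.6% to 20.2% of the reads of that window in each library.

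**Figure D4:**
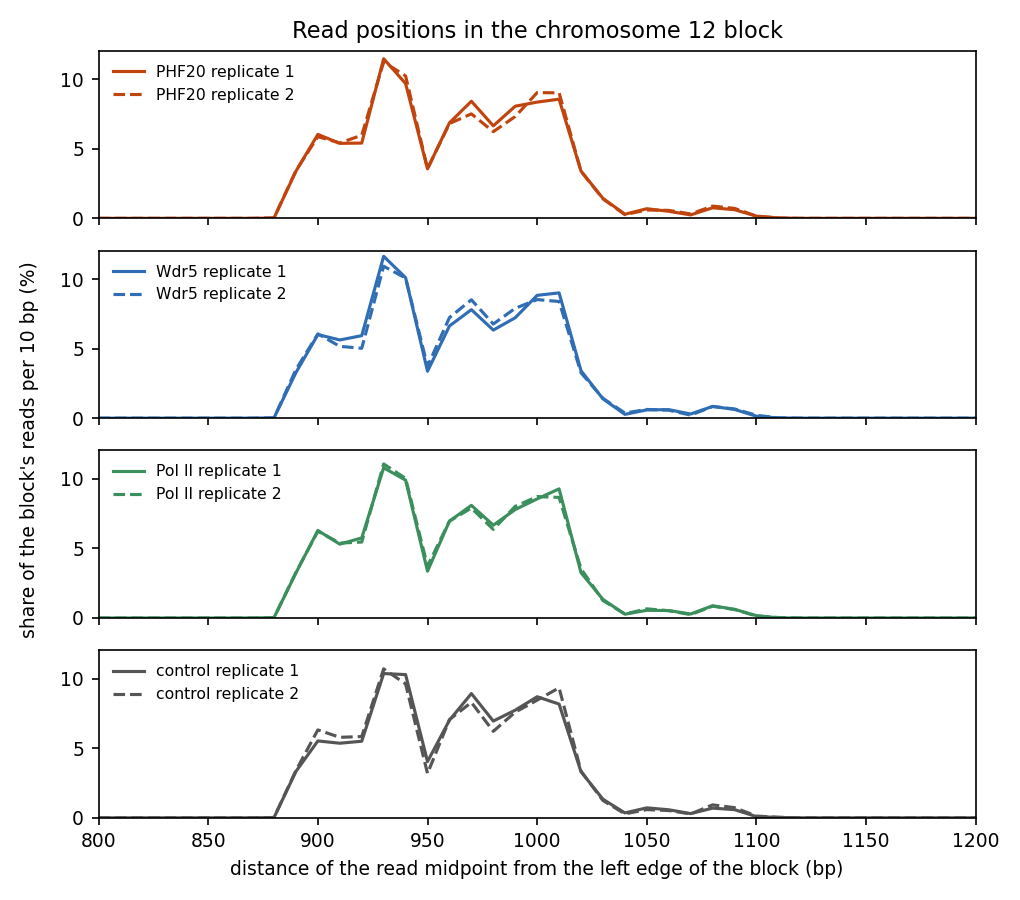
Share of the chromosome 12 block's reads per 10 bp (y axis, %) against the distance of the read midpoint from the left edge of the block (x axis, bp), with 1 panel per group and 1 line per replicate. The 8 profiles have the same shape, with 99% of the reads within 202 bp.

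The chromosome 2 block had correlations of at least 0.993 among the 7 libraries other than control replicate 1, and 0.954 to 0.970 with that library. At the chromosome 9 block at the chromosome start they were 0.902 to 0.945, and each library used 46.8% to 61.5% of the 39000 positions. Where control replicate 1 was raised, its correlation with the other libraries differed by place. It was 0.819 to 0.956 in the chromosome 2 window at 98505001, 0.843 to 0.952 in the chromosome 6 window and 0.681 to 0.896 in the chromosome 4 block at 64158001. In the chromosome 1 window at 24621001 it was -0.064 to 0.039. The other libraries held 16 to 103 reads there, too few over 1000 positions to tell whether positions were shared. In the sparse windows the positions had little in common. The correlation was 0.015 to 0.047 in the long chromosome 11 block, 0.016 to 0.099 in the chromosome 17 block and 0.018 to 0.073 over the chromosome 8 cluster, where reads were few for the number of positions and no start was used by all 8 libraries.

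Read starts in the chromosome 9 block at the chromosome start recurred at a regular spacing. The autocorrelation of start counts along the block, searched from 100 to 1000 bp, peaked at 468, 877, 234 and 702 bp, with values of 0.097, 0.089, 0.087 and 0.079 against a median of 0.009. The same 4 distances were the highest in each of the 8 libraries on its own. Of these, 468 and 702 are multiples of 234, and 877 is not. The major satellite of the mouse is known for a repeat unit of about 234 bp, built of shorter subrepeats. The long chromosome 11 block showed no peak above 0.025, at 250 bp, and its best distance was not the same in the 8 libraries. Each library used only 3.49% to 4.79% of the positions there, against 46.8% to 61.5% in the chromosome 9 block. With so few starts, the lack of a peak does not show that a spacing is absent. The chromosome 2 block peaked at 143 bp in every library, with 0.409 to 0.415. These values describe mapped positions only.

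**Figure D5:**
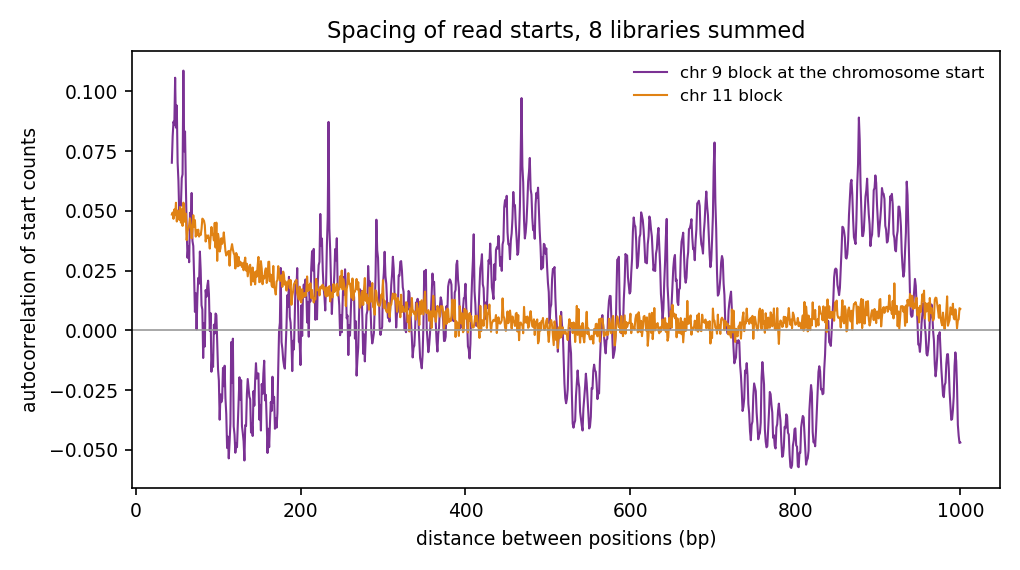
Autocorrelation of start counts, summed over the 8 libraries (y axis), against the distance between positions (x axis, bp), for the chromosome 9 block at the chromosome start and the long chromosome 11 block. The chromosome 9 curve has narrow peaks at 234, 468, 702 and 877 bp and the chromosome 11 curve has none of comparable height beyond 100 bp. Starts in the chromosome 11 block are too sparse for this to show that a spacing is absent.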

How the data were processed

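The authors' deposited files, 1 per library, hold read intervals of 44 bp with duplicates included and carry no strand, score or other value. CASAVA 1.6, FastQC and Bowtie 0.12.7 with mm9 are named per the submitters' processing notes; what each did, and how reads with several matches were placed, which bears on every pile-up, is not stated in the sources used here. Libraries had 15 PCR cycles and fragments of about 250 bp, per the labels' protocols.

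Members and tests were chosen with earlier results of these data known. Reads sharing a chromosome and start were collapsed, without strand, and assigned by midpoint (22 bp from the start). Shares used all deposited reads on the autosomes and X. Because the files hold read positions, window totals made here were turned into log2 CPM (prior count 2) and limma-trend was run on them (limma 3.58.1, R 4.3.3) with all 8 libraries and 4 residual degrees of freedom; the fit was tested on simulated data. The estimated prior degrees of freedom were infinite, so the spread of each window came from the trend alone. Single values were compared by exact permutation. Named were the 10 blocks with the largest mean share, the places in the definition and, per comparison, up to 10 called members in each direction. Places high in control replicate 1 were added after their values were seen. Coordinates count from 1 on mm9. Python 3.11.15, numpy 2.4.6, scipy 1.17.1 and pandas 2.3.3 were used. No sequence was read, since no mm9 genome was used here.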

Additional observations from a re-analysis of the deposited data

How the results depend on the processing

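Of 126 alternatives to 12 results, 114 were alike. For single values this meant the same direction only, since no p there could fall below 0.33. For counts of called members it meant 0 calls in both fits, on distinct starts, from which nothing is read. The 114 are therefore not a measure of stability. Among them was the share of distinct starts, whose differences shrank to 0.098, 0.176 and 0.284 points with overlapping groups. The exceptions follow. The cause was not tested. Members called with deposited reads, duplicates kept, numbered 4 in the PHF20 comparison, 8 in Wdr5 and 2 in Pol II, against 0 on distinct starts. Deposited reads without control replicate 1, an alternative chosen after seeing the data, gave 4, 4 and 1. Leaving out 1 library gave 0 to 12 calls for Wdr5 and 0 to 8 for Pol II, the highest without control replicate 2, and leaves its group with a lone library that is assumed to vary like the others. The difference in reads per start ran from -0.40 to 7.24 for Wdr5 and from -2.29 to 5.35 for Pol II when 1 library was left out. Divided by the reads per start outside the windows, the Pol II difference was -0.15. The near-to-elsewhere ratio of Wdr5 on collapsed reads was -0.078 (log2). The difference in share ran from 3.90 to 5.73 points for PHF20, 4.51 to 6.11 for Wdr5 and 2.66 to 4.26 for Pol II when 1 library was left out. The replicate block called 0 members in each comparison, as did the fit without it. No label ties the replicate numbers to a shared source. The differences between replicates 1 and 2 correlated between groups at -0.073 to 0.219 over all tested windows and at -0.129 to 0.681 over the members, highest for Wdr5 with control. With 2 libraries per group and 8 in all, no test of a single value could fall below 0.33.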

Other observations

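Windows at the same minimum of 10 distinct starts in every library were also present outside the autosomes, 30 on X, 41 on Y and 10 on the mitochondrial genome. Those on X took 0.0311% to 0.0479% of all deposited reads in the ChIP libraries and 0.0522% and 0.0407% in the controls. The windows on Y took 0.0530% to 0.0642% in ChIP and 0.0638% and 0.0642% in control. The mitochondrial windows took 0.00757% to 0.0359% in ChIP, and 0.0833% in control replicate 1 and 0.0193% in control replicate 2. None of these chromosomes held a pile-up with a share like that of the 4 large autosomal blocks.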
